A study of Mus musculus with 4 samples.

Results

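The 10 genes described here mark microglia and other leukocytes: *Csf1r*, *Cx3cr1*, *Aif1*, *C1qa*, *C1qb*, *C1qc*, *Tyrobp*, *Fcer1g*, *Ptprc* and *Cd68*. They were chosen by symbol, as genes that show whether cultures of neural progenitors also hold immune cells, and all 10 were found among the 21091 entries of the expression files. Every one of the 10 had its highest value in the E11 CTL library, and all were below 1 FPKM at both genotypes of E14. From E11 to E14, 8 of the 9 members with a ratio were at least 2-fold lower in CTL, against 20.1% of all entries compared, and 9 of 10 were in *Stat3* cKO, against 15.9%. At E11 all 10 had less in *Stat3* cKO than in CTL, by 1.10-fold to 2.18-fold, where 44.6% of all entries were lower. Of the 10, 1 member reached 2-fold, against 4.04% of all entries. At E14 the genotypes had nearly the same summed level.

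RNA-seq was carried out on neural progenitors from the brains of C57BL/6 mouse embryos at embryonic day 11 (E11) or 14 (E14), which were lysed after 3 days of culture in suspension. At each stage there was 1 control (CTL) library and 1 library from embryos with a conditional deletion of *Stat3* (*Stat3* cKO), in which both *Stat3* alleles were floxed and Cre was expressed from a *Nestin* transgene. The labels and the RNA-seq methods of the study call the control genotype WT or wild-type, while its animal methods give Nestin-Cre embryos with 1 floxed and 1 intact *Stat3* allele as controls, so whether the CTL libraries also carried Cre cannot be told. The *Nestin* transgene drives Cre in neural progenitors, and whether any other cell of the cultures lost *Stat3* is not given by the labels. The number and sex of the embryos behind a library are not given in the sources used here. With no replicate in any group, no difference could be set against a spread between samples, and no p-value is given. *Stat3* itself was at 7.41 FPKM (CTL) and 6.74 FPKM (*Stat3* cKO) at E11 and at 27.6 FPKM (CTL) and 9.55 FPKM (*Stat3* cKO) at E14.

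Microglia are the resident macrophages of the brain. They descend from yolk sac progenitors and enter the neural tube in early development, so they do not arise from the neural progenitors of the same tissue. They depend on signals through CSF1R, survey the tissue, clear dying cells and are the main source of C1q in the brain. Several of the genes are shared with other blood cells, and *Cd68* is also transcribed at a low level in cells outside the blood lineage.

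Levels are given in FPKM, fragments per kilobase of transcript after correction for library size, which is a scale per length and so allows levels of different genes to be set side by side. In E11 CTL the members ranged from 0.399 to 3.84 FPKM with a median of 1.52, and 6 of 10 reached 1 FPKM. In E11 *Stat3* cKO the range was 0.221 to 1.93 with a median of 1.11, and 5 reached 1 FPKM. At E14 the medians were 0.165 FPKM in CTL and 0.137 in *Stat3* cKO. All were thus scarce transcripts. Even *Tyrobp* in E11 CTL, the highest value of the set, ranked at percentile 53.1 of all entries of that library, and 40.7% of the entries there were below 1 FPKM. Ordered by level in E11 CTL, the members ran from *Tyrobp* through *Fcer1g*, *C1qc*, *C1qb*, *C1qa*, *Cd68*, *Csf1r*, *Aif1* and *Ptprc* to *Cx3cr1*. Which neighbours in this order differ could not be judged from single libraries.

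**Figure D1:**
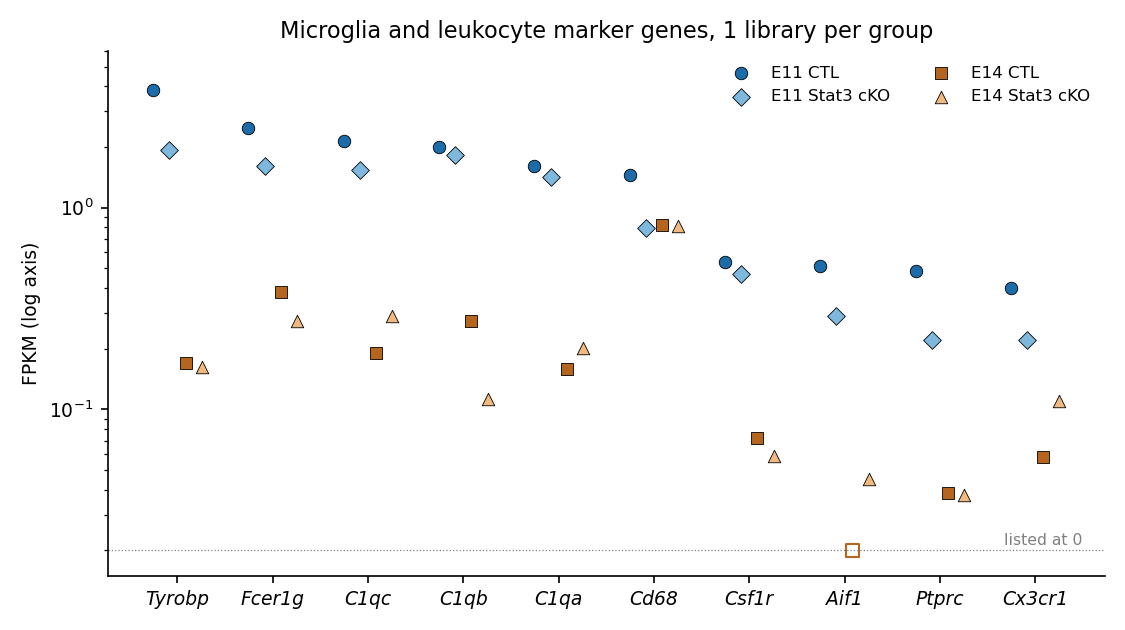
FPKM (log axis) of the 10 member genes, ordered by their value in E11 CTL, with 1 symbol for each of the 4 libraries and an open square on the dotted line for the value of *Aif1* listed at 0. The E11 and E14 symbols of *Cd68* overlap and lie between 0.796 and 1.45 FPKM.

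The deposited values carry no read counts. The smallest values of long transcripts fell in steps, and taking 1 step as 1 fragment gave an estimated depth of 39.1 M to 48.2 M fragments per library. These estimates are rough, since 49.7% to 55.1% of the low values lay near a whole number of fragments where an even spread gives 30%. By this scale the 10 members together rested on about 951 fragments (CTL) and 519 fragments (*Stat3* cKO) at E11, but on only about 118 (CTL) and 139 (*Stat3* cKO) at E14. A single member at E14 rested on an estimated 0 to 41 fragments in CTL and 2 to 46 in *Stat3* cKO. Differences between the genotypes at E14 are therefore poorly determined. Exact (Clopper-Pearson) 95% intervals for the ratio of these rough fragment numbers, corrected for depth, which cover counting error only, held a ratio of 1 for all 10 members between the genotypes at E14, and for 4 of 10 at E11, *Csf1r*, *Aif1*, *C1qa* and *C1qb*. At this depth a value of 0 means that no fragment was assigned, not that the transcript was absent.

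The surface receptors were considered first. *Csf1r* encodes the receptor for CSF1 and IL-34 on which microglial survival depends, and the files list it on chromosome 18 from 61265226 to 61290793. *Csf1r* was at 0.538 FPKM (CTL) and 0.472 FPKM (*Stat3* cKO) at E11, against 0.0722 FPKM (CTL) and 0.0589 FPKM (*Stat3* cKO) at E14. Both E14 values were below both E11 values, by 7.45-fold in CTL and 8.01-fold in *Stat3* cKO, and the genotypes lay close together at each stage with ratios of *Stat3* cKO to CTL of 0.877 and 0.816. On the same chromosome the list places *Pdgfrb*, a receptor gene of pericytes related in sequence to *Csf1r*, with 13.2 FPKM (CTL) and 14.4 FPKM (*Stat3* cKO) at E11 and 0.625 FPKM (CTL) and 1.58 FPKM (*Stat3* cKO) at E14. It was named after its values had been seen.

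*Cx3cr1* encodes the receptor for the neuronal chemokine CX3CL1 and is listed on chromosome 9 from 119957801 to 119977414. *Cx3cr1* was at 0.399 FPKM (CTL) and 0.221 FPKM (*Stat3* cKO) at E11 and at 0.0584 FPKM (CTL) and 0.110 FPKM (*Stat3* cKO) at E14. It was the member with the smallest of the stage differences past 2-fold, 2.005-fold in *Stat3* cKO, while in CTL it was 6.83-fold lower at E14. The direction of the genotype difference turned between the stages, from a ratio of 0.555 at E11 to 1.89 at E14, the latter on an estimated 11 and 23 fragments.

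*C1qa*, *C1qb* and *C1qc* encode the 3 chains of C1q, the recognition molecule that starts the classical complement pathway. The files list them side by side on chromosome 4, *C1qb* from 136436061 to 136442092, *C1qc* from 136445717 to 136448829 and *C1qa* from 136451831 to 136454759. *C1qa* was at 1.60 FPKM (CTL) and 1.42 FPKM (*Stat3* cKO) at E11 and at 0.158 FPKM (CTL) and 0.203 FPKM (*Stat3* cKO) at E14. *C1qb* was at 1.9996 FPKM (CTL) and 1.82 FPKM (*Stat3* cKO) at E11 and at 0.274 FPKM (CTL) and 0.113 FPKM (*Stat3* cKO) at E14. *C1qc* was at 2.14 FPKM (CTL) and 1.54 FPKM (*Stat3* cKO) at E11 and at 0.191 FPKM (CTL) and 0.289 FPKM (*Stat3* cKO) at E14. All 3 chains were lower at E14 in both genotypes. In CTL the E14 level was 10.1-fold lower for *C1qa*, 7.30-fold for *C1qb* and 11.2-fold for *C1qc*, and in *Stat3* cKO it was 7.01-fold, 16.1-fold and 5.32-fold lower. The chains are assembled in equal numbers into C1q, and at E11 their transcripts took comparable shares of the C1q sum. *C1qa*, *C1qb* and *C1qc* took 27.9%, 34.8% and 37.3% of it in E11 CTL and 29.7%, 38.0% and 32.2% in E11 *Stat3* cKO. At E14 the shares spread out, with *C1qb* at 44.0% in CTL and 18.7% in *Stat3* cKO. The *C1qb* values at E14 rested on an estimated 12 fragments in CTL and 6 in *Stat3* cKO.

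*Tyrobp* and *Fcer1g* encode small membrane adaptors, DAP12 and the Fc receptor common gamma chain, which carry the signalling motifs for receptors such as TREM2 and the activating Fc receptors. *Tyrobp*, listed on chromosome 7 from 31198807 to 31202598, was at 3.84 FPKM (CTL) and 1.93 FPKM (*Stat3* cKO) at E11 and at 0.171 FPKM (CTL) and 0.162 FPKM (*Stat3* cKO) at E14. Among the 9 members with a ratio in CTL it had the widest, 22.5-fold from E11 to E14, and it was 11.9-fold lower at E14 in *Stat3* cKO. *Fcer1g*, listed on chromosome 1 from 173159703 to 173164480, was at 2.48 FPKM (CTL) and 1.61 FPKM (*Stat3* cKO) at E11 and at 0.383 FPKM (CTL) and 0.275 FPKM (*Stat3* cKO) at E14. Its levels at E14 were 6.48-fold and 5.85-fold lower than at E11 in CTL and *Stat3* cKO.

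*Ptprc* encodes CD45, the tyrosine phosphatase on all nucleated blood cells, and is listed on chromosome 1 from 139959436 to 140071882. *Ptprc* was at 0.484 FPKM (CTL) and 0.222 FPKM (*Stat3* cKO) at E11 and at 0.0384 FPKM (CTL) and 0.0376 FPKM (*Stat3* cKO) at E14. The E14 libraries were thus 12.6-fold and 5.91-fold below the E11 library of the same genotype, and nearly equal to each other. *Aif1* encodes IBA1, an actin-binding protein used to stain microglia, and is listed on chromosome 17 from 35307937 to 35312946. *Aif1* was at 0.512 FPKM in E11 CTL and 0.292 in E11 *Stat3* cKO, and at E14 was listed at 0 in CTL and at 0.0451 FPKM in *Stat3* cKO, on an estimated 22, 10, 0 and 2 fragments. It was 6.48-fold lower at E14 in *Stat3* cKO, and no ratio was formed in CTL.

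*Cd68* encodes a lysosomal glycoprotein of phagocytes and is listed on chromosome 11 from 69477873 to 69479564. *Cd68* was at 1.45 FPKM (CTL) and 0.796 FPKM (*Stat3* cKO) at E11 and at 0.818 FPKM (CTL) and 0.813 FPKM (*Stat3* cKO) at E14. Its E11 and E14 values overlapped. The E14 level was 1.77-fold lower in CTL and 1.02 times the E11 level in *Stat3* cKO. With upper-quartile scaling the latter ratio turned to just below 1, at -0.020 on the log2 scale, and the former reached -1.02. *Cd68* made up 37.8% of the summed FPKM of the members at E14 in CTL and 38.6% in *Stat3* cKO, against 9.36% and 7.72% in the E11 libraries. Within 873 bases of *Cd68* the list places *Eif4a1*, a translation factor gene at 584 FPKM (CTL) and 765 FPKM (*Stat3* cKO) at E11 and 1341 FPKM (CTL) and 829 FPKM (*Stat3* cKO) at E14. *Eif4a1* was named after its values were seen, and the part of reads from this abundant neighbour in the *Cd68* values was not tested. No member overlapped another entry of the list.

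Upstream sequence is shown for *C1qb* and *C1qc*, which were lower at E14 in both genotypes, and for *Cd68*, which was not. They are the 250 bases before the RefSeq start of each gene in GRCm38.p6, all on the minus strand, at chr4:136886201-136886450 for *C1qb*, chr4:136892915-136893164 for *C1qc* and chr11:69666171-69666420 for *Cd68*. This build is not that of the coordinates in the files. Capitals mark GAGGAA or its reverse complement TTCCTC, the core bound by PU.1, the transcription factor that drives macrophage genes.
C1qb: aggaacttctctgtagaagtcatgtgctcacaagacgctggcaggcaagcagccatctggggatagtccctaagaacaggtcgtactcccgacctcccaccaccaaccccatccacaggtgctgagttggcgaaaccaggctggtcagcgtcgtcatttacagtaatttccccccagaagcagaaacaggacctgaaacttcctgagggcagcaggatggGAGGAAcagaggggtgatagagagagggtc
C1qc: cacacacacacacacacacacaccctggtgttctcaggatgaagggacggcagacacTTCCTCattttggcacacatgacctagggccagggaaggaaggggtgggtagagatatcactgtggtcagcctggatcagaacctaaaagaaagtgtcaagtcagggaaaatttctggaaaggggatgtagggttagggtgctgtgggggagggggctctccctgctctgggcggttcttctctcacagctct
Cd68: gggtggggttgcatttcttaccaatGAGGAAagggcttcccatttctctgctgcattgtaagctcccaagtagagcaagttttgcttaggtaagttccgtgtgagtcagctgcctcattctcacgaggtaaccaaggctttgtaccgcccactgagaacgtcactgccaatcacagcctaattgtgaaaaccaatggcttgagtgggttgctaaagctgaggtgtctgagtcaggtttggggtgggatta
The core started 30 bases before the start site in *C1qb*, 193 in *C1qc* on the other strand and 225 in *Cd68*. In all, upstream sequence of 7 members was searched in 8 windows, and *Csf1r*, *C1qa* and *Tyrobp* were not among them. On either strand 5 windows held the core, those of *C1qb*, *C1qc*, *Cd68* and *Aif1* and 1 of *Ptprc*, against 23.3% of the 32851 windows of all genes. A further window of *Ptprc* and those of *Fcer1g* and *Cx3cr1* held none. The STAT motif TTCCNGGAA, searched on both strands, was in 0 of the 8 windows and in 0.913% of all. A match describes letters in a short window and not a bound site, and no part of the motifs in the levels was tested.

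The comparison of stages asks how the level of immune cell transcripts differed between cultures from the earlier and the later brain. An entry was called higher or lower when the plain ratio of its FPKM values reached 2, among entries whose mean across all libraries was 0.1 FPKM or more and which had a value above 0 in both libraries compared. All 10 members passed this minimum, but 4 of them passed only through their E11 values, since 6 reached that mean on the E14 libraries alone. In CTL, 8 of 9 members with a ratio were at least 2-fold lower at E14 and 0 were higher, against 20.1% and 13.6% of the 15780 entries compared. Upper-quartile scaling of the libraries changed these background shares to 23.6% and 9.57% and the median log2 ratio of all entries in CTL to -0.13. *Cd68* then passed the limit, so that 9 members were lower and 0 higher. In *Stat3* cKO, 9 of 10 were lower and 0 higher, against 15.9% and 11.4% of 15793 entries. The median log2 ratio of the members was -2.90 in CTL and -2.63 in *Stat3* cKO, where all entries had medians of 0.073 and -0.0018. The summed FPKM of the 10 members went in CTL from 15.4 at E11 to 2.16 at E14, 7.14-fold lower, and in *Stat3* cKO from 10.3 to 2.11, 4.90-fold lower. Without *Cd68* the differences in the sum were 10.4-fold and 7.36-fold. In a bulk culture fewer cells of a type and less RNA per cell cannot be told apart, and stage cannot be told apart from the single dissection and culture behind each library.

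**Figure D2:**
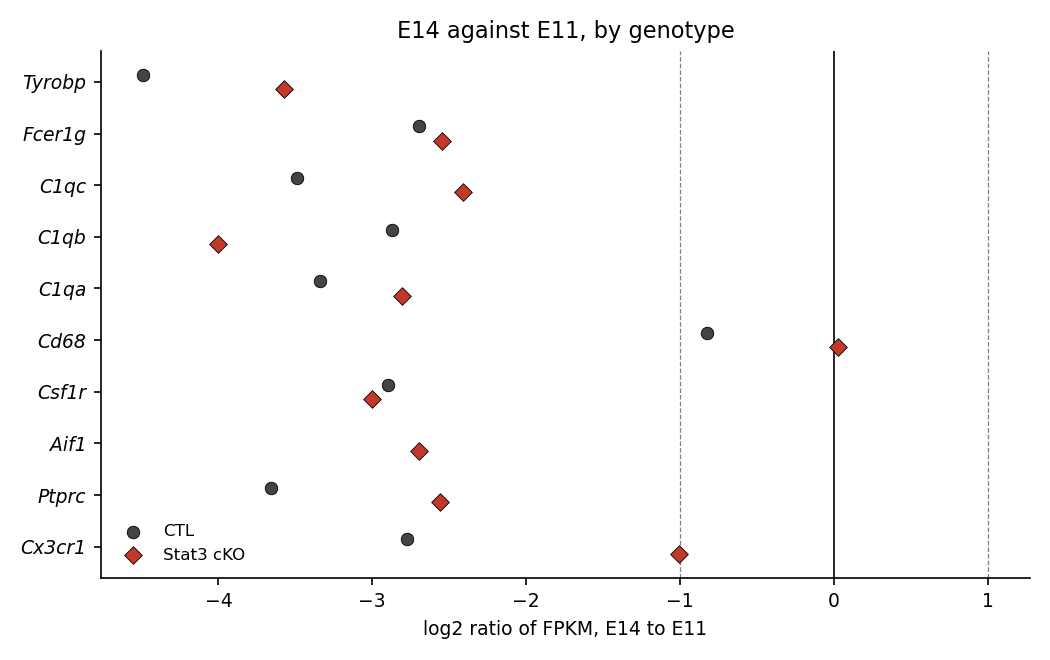
Log2 ratio of FPKM, E14 to E11, for each member in CTL (circles) and *Stat3* cKO (diamonds), with dashed lines at the 2-fold limits. All points but those of *Cd68* lie at or left of -1, *Cx3cr1* in *Stat3* cKO lies at the limit with 2.005-fold, and *Aif1* has no point in CTL because its E14 value was listed at 0.

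The comparison of genotypes sets the library labelled *Stat3* cKO beside that labelled CTL at each stage. *Stat3* itself was clearly lower in the *Stat3* cKO library at E14 only, and at E11 the libraries were at 7.41 FPKM in CTL and 6.74 FPKM in *Stat3* cKO. At E11 the members had *Stat3* cKO to CTL ratios from 0.459 for *Ptprc* to 0.908 for *C1qb*, with a median log2 ratio of -0.72 against 0.031 for all entries. All 10 ratios were below 1, as were 44.6% of the 15843 entries. The libraries also differed in their scarcest entries, of which 330 were listed at 0 in E11 CTL and 1039 in E11 *Stat3* cKO, against 1589 and 925 in the same order at E14. With no minimum level, 9.11% of the 19797 entries with a ratio were at least 2-fold lower in E11 *Stat3* cKO and 2.30% higher, and the part of this difference in the ratios of the members was not tested. Of the members, 1, *Ptprc*, was at least 2-fold lower, against 4.04% of all entries, and 0 were higher, against 0.726%. The *Ptprc* call was lost with a pseudocount of 0.1 or 1 and at a limit of 3-fold. *Tyrobp* was next with a ratio of 0.503, followed by *Cd68* at 0.551, *Cx3cr1* at 0.555, *Aif1* at 0.570, *Fcer1g* at 0.647 and *C1qc* at 0.718. *Csf1r*, *C1qa* and *C1qb* had ratios of 0.877, 0.886 and 0.908. The ratios were nearest to 1 in *Csf1r* and 2 of the C1q chains and farthest from it in *Ptprc* and *Tyrobp*, an order that single libraries cannot settle. The sum of the 10 members was 1.498-fold lower in *Stat3* cKO. All genotype and stage comparisons share libraries, the E11 CTL library among them, in which every member was highest, so a level particular to that library would enter both the E11 genotype ratio and the CTL stage ratio.

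At E14 the members did not lean one way. Of 9 with a ratio, 6 were below 1, against 55.8% of the 15750 entries compared, and the median log2 ratio was -0.030 against -0.050 for all entries. Only *C1qb*, with a ratio of 0.413, was at least 2-fold lower, against 2.93% of entries, and 0 members were at least 2-fold higher, against 4.95%. The *C1qb* call, on an estimated 6 against 12 fragments, was lost with a pseudocount of 0.1 or 1 and at a limit of 3-fold. *Cx3cr1* at 1.89, *C1qc* at 1.51 and *C1qa* at 1.28 had ratios above 1. *Csf1r* and *Fcer1g* had ratios of 0.816 and 0.717. The ratios of *Tyrobp*, *Ptprc* and *Cd68*, 0.946, 0.979 and 0.994, were all close to 1, and turned to above 1 with upper-quartile scaling, those of *Ptprc* and *Cd68* also with the median of all entries set to 0. The summed FPKM was 0.973 times that of CTL.

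**Figure D3:**
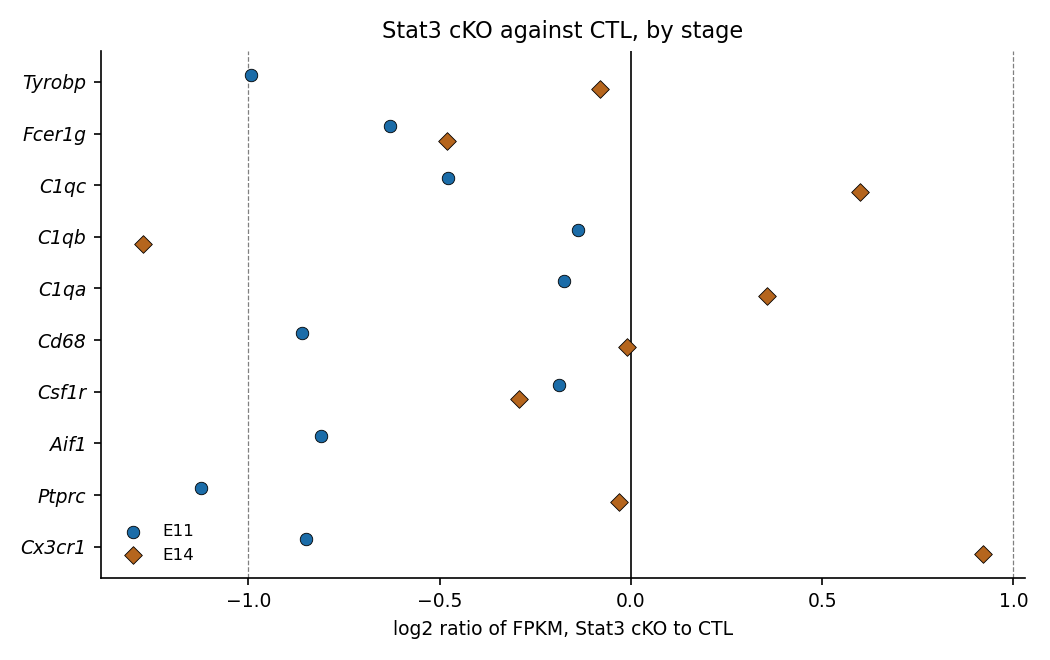
Log2 ratio of FPKM, *Stat3* cKO to CTL, for each member at E11 (circles) and E14 (diamonds), with dashed lines at the 2-fold limits. All 10 E11 points lie left of 0 and the E14 points lie on both sides, from *C1qb* at -1.28 to *Cx3cr1* at 0.92, with no E14 point for *Aif1*.

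Other genes of the same cells were read from lists written by symbol. There were 24 other microglia and macrophage genes. In CTL, 11 of the 18 with a ratio were at least 2-fold lower at E14 and 1 was higher, against 20.1% and 13.6% of all entries. The median log2 ratio was -2.72. In *Stat3* cKO, 15 of 19 were lower and 1 higher, against 15.9% and 11.4%, with a median of -2.19. Between the genotypes at E11, 13 of 19 had a ratio below 1, against 44.6% of all entries, with a median log2 ratio of -0.28. There, 2 reached 2-fold lower and 1 reached 2-fold higher, against 4.04% and 0.726%. At E14, where the members did not lean one way, 13 of the 18 other genes with a ratio were below 1, against 55.8%. The median was -0.51, and 5 reached 2-fold lower and 0 higher, against 2.93% and 4.95%. Those 5 were *Tmem119*, *P2ry13*, *Gpr34*, *Olfml3* and *Lyz2*, and at E14 *Olfml3* was at 6.11 FPKM in CTL and 2.70 FPKM in *Stat3* cKO. *P2ry13*, at 0.149 and 0.0541 FPKM, *Gpr34*, at 0.175 and 0.0678 FPKM, and *Tmem119* were near the floor at E14. At such levels the members rested on few fragments, so these calls are poorly determined. *P2ry13* and *Gpr34* are named after their values were seen. *Lyz2*, the lysozyme of myeloid cells, was at 19.2 FPKM (CTL) and 15.9 FPKM (*Stat3* cKO) at E11 and at 2.17 FPKM (CTL) and 1.07 FPKM (*Stat3* cKO) at E14. Genes held to be nearly particular to microglia in the adult brain differed among themselves. *P2ry12* was at 0.0966 FPKM (CTL) and 0.0713 FPKM (*Stat3* cKO) at E11 and at 0.302 FPKM (CTL) and 0.174 FPKM (*Stat3* cKO) at E14, the reverse order of stages. *Tmem119* was at 7.96, 4.85, 0.367 and 0.136 FPKM, above every member at E11. *Trem2*, whose protein signals through DAP12, was at 0.680, 0.269, 0.0631 and 0.0626 FPKM. *P2ry12*, *Tmem119* and *Trem2* were named after their values had been seen.

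The transcription factors that specify blood and macrophage cells were mixed. Of 9 with a ratio, 4 were at least 2-fold lower at E14 in each genotype and 0 were higher. Of all entries, 20.1% were lower in CTL and 15.9% in *Stat3* cKO. PU.1 itself, listed under its older symbol *Sfpi1*, followed the members, with 0.408 FPKM (CTL) and 0.2799 FPKM (*Stat3* cKO) at E11 and 0.0387 FPKM (CTL) and 0.0194 FPKM (*Stat3* cKO) at E14. It was named after its values had been seen. *Tal1*, which acts in early blood cells and also in neurons of the hindbrain and spinal cord, was at 7.17, 8.73, 0.117 and 0.149 FPKM. *Cebpa*, which is used in other lineages too, had its highest value at E14, 2.17 FPKM in CTL.

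The ligands and signalling partners of the members were mixed. Of 10 with a ratio in CTL, 2 were at least 2-fold lower and 3 higher at E14, against 20.1% and 13.6% of all entries. In *Stat3* cKO 3 were lower and 3 higher, against 15.9% and 11.4%. *Cx3cl1*, the ligand of CX3CR1, was at 1.62 FPKM (CTL) and 1.17 FPKM (*Stat3* cKO) at E11 and at 6.41 FPKM (CTL) and 7.33 FPKM (*Stat3* cKO) at E14, so that ligand and receptor ran in opposite directions between the stages. *Il34*, a ligand of CSF1R, was at 0.788, 0.573, 0.130 and 0.0979 FPKM and was named after its values were seen. *Csf1*, the other ligand, was at 4.78, 4.04, 2.44 and 2.21 FPKM and was likewise named afterwards. The tyrosine kinase gene *Lyn*, which acts downstream of Fc receptors, was at 1.20 FPKM (CTL) and 1.35 FPKM (*Stat3* cKO) at E11 and at 10.7 FPKM (CTL) and 4.65 FPKM (*Stat3* cKO) at E14.

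The complement genes outside C1q had the same order of stages as the C1q chains. Of those with a ratio, 9 of 9 in CTL and 8 of 9 in *Stat3* cKO were at least 2-fold lower at E14, against 20.1% and 15.9% of all entries. The medians were -4.49 and -2.85 on the log2 scale. At E11, 9 of 9 had a *Stat3* cKO to CTL ratio below 1, against 44.6% of all entries, with a median log2 ratio of -0.56. At E14 the list leaned the other way, with 2 of 9 below 1, against 55.8%, and a median log2 ratio of 0.34. There, 1 gene was at least 2-fold lower and 2 higher, against 2.93% and 4.95%. Its most abundant genes are not made by leukocytes alone. *Serping1*, the inhibitor of the C1 proteases, was at 10.5 FPKM (CTL) and 8.37 FPKM (*Stat3* cKO) at E11 and at 0.426 FPKM (CTL) and 0.457 FPKM (*Stat3* cKO) at E14. *C2*, a protease of the classical pathway, was at 9.19, 4.77, 0.472 and 0.748 FPKM. Both exceeded every C1q chain at E11.

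There were 11 cytoskeletal and adaptor genes common to leukocytes. At least 2-fold lower at E14 were 6 of 7 with a ratio in CTL, with 1 higher, against 20.1% and 13.6% of all entries. In *Stat3* cKO 5 of 6 were lower and 0 higher, against 15.9% and 11.4%. The exception was *Coro1a*, an actin regulator that neurons also use, at 12.8 FPKM (CTL) and 14.2 FPKM (*Stat3* cKO) at E11 and 28.8 FPKM (CTL) and 22.3 FPKM (*Stat3* cKO) at E14. *Arhgdib*, a cytoskeletal regulator of blood cells, was at 4.36, 3.12, 0.552 and 0.682 FPKM, and *Cd52*, a leukocyte surface peptide, at 2.79, 1.45 and 0.0703 and listed at 0 in E14 *Stat3* cKO. Among the lysosomal genes that most cells use, 1 of 10 was at least 2-fold lower at E14 in CTL, against 20.1% of all entries. In *Stat3* cKO 0 were, against 15.9%. The medians were -0.12 and 0.22 on the log2 scale. Their median genotype ratio at E11 was -0.081 on the log2 scale, where *Cd68* was at -0.86. *Psap*, which encodes the saposins, lay between 209 and 268 FPKM in the 4 libraries.

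**Figure D4:**
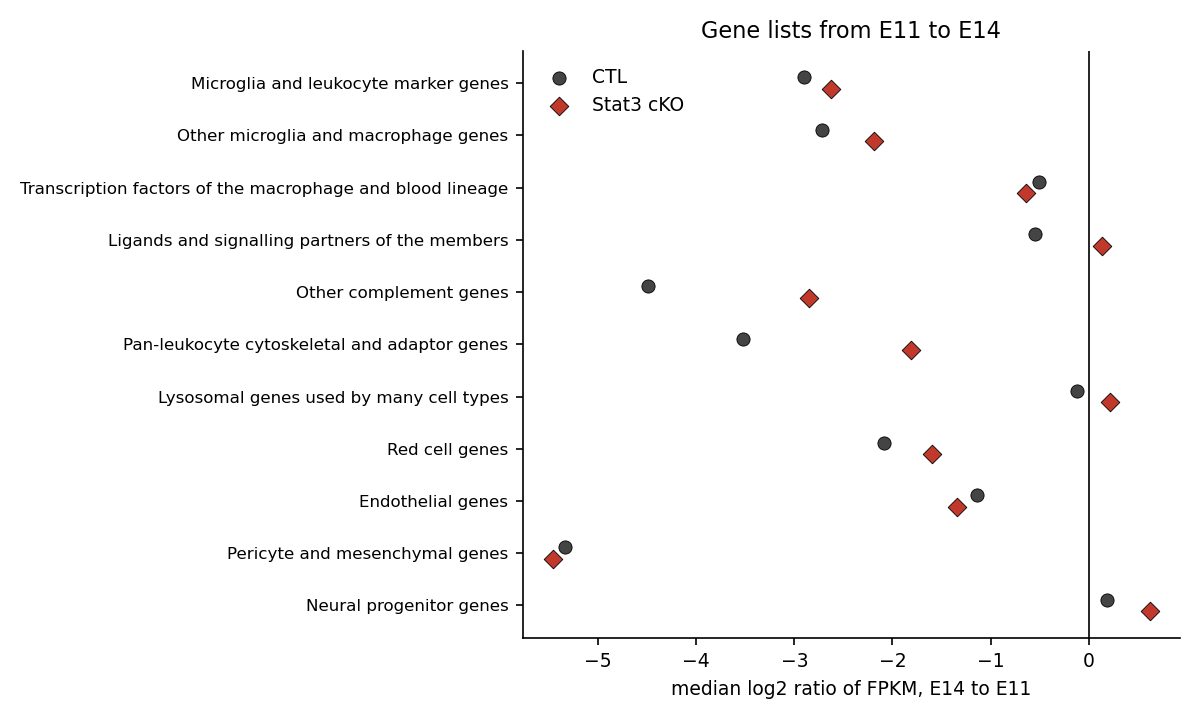
Median log2 ratio of FPKM, E14 to E11, of each gene list with at least 5 ratios in both genotypes, for CTL (circles) and *Stat3* cKO (diamonds). The members lie at -2.90 and -2.63, beside the other microglia and macrophage genes at -2.72 and -2.19, while lysosomal genes lie at -0.12 and 0.22, neural progenitor genes at 0.19 and 0.63, and pericyte and mesenchymal genes lie farthest left at -5.34 and -5.46.

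The immune cell lists of other kinds were near the bottom of the scale. All 8 listed T and B cell genes were below 1 FPKM in each library, with sums of 0.866 FPKM (CTL) and 1.16 FPKM (*Stat3* cKO) at E11 and 0.375 FPKM (CTL) and 0.423 FPKM (*Stat3* cKO) at E14. The 8 neutrophil and mast cell genes summed to 0.253 to 0.871 FPKM and the 5 platelet genes to 0.425 to 1.02 FPKM, again with no gene reaching 1 FPKM. Neither the T and B cell list nor the neutrophil and mast cell list was highest in E11 CTL. Both summed highest in E11 *Stat3* cKO, unlike the members. The highest single values behind these sums were 0.362 FPKM for *Cd79b* and 0.338 FPKM for *S100a8*, so this order is poorly determined.

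Markers of other tissues around the early brain moved with the members between the stages. The 10 pericyte and mesenchymal genes summed to 1288 FPKM (CTL) and 1139 FPKM (*Stat3* cKO) at E11 and to 16.2 FPKM (CTL) and 10.9 FPKM (*Stat3* cKO) at E14. Of these, 9 of 10 were at least 2-fold lower at E14 in each genotype, against 20.1% (CTL) and 15.9% (*Stat3* cKO) of all entries. *Col3a1* alone was at 674, 586, 7.64 and 4.29 FPKM. The 12 endothelial genes summed to 31.1, 39.3, 12.2 and 11.1 FPKM, with 5 of 10 lower in CTL and 6 of 10 in *Stat3* cKO, against the same shares. None of the genes in these lists was listed at 0 in any library. The 11 red cell entries summed to 33.0 FPKM (CTL) and 5.65 FPKM (*Stat3* cKO) at E11 and to 3.30 FPKM (CTL) and 2.27 FPKM (*Stat3* cKO) at E14, with *Hbb-y*, the embryonic beta-like globin, at 22.4, 3.07, 1.87 and 0.852 FPKM. At E11 all 8 red cell entries with a ratio were lower in *Stat3* cKO, where 44.6% of all entries were. Of the 8, 5 were at least 2-fold lower, against 4.04%. Their median log2 ratio was -1.98, in the direction of the members. The mesenchymal genes differed little between the E11 genotypes, with a median log2 ratio of -0.12, and the endothelial genes had a median of -0.10. The 10 neural progenitor genes were each above 1 FPKM in all libraries and summed to between 1488 FPKM in E11 CTL and 7954 FPKM in E14 *Stat3* cKO. At E14 most of the sum came from *Fabp7*, with 5245 FPKM in CTL and 5929 FPKM in *Stat3* cKO. Their median log2 ratios from E11 to E14 were 0.19 and 0.63, but they were mixed. In CTL 3 were at least 2-fold lower and 3 higher, and in *Stat3* cKO 3 were lower and 4 higher. The part of these tissue differences in the levels of the members was not tested.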

How the data were processed

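RNA-seq of 4 libraries was analysed, with 1 library per group. Per the methods of the study, the authors checked reads with FastQC, aligned them with TopHat and ran Cufflinks. The deposited values are FPKM, in which a gene's fragments are divided by transcript length and by the fragments mapped. The submitters' processing notes also list Bowtie 0.12.2 and the builds mm8 and mm9, with no role given. The annotation and any scaling between libraries are not given in the sources used here. Paralogs and overlapping entries can share reads, and strand was not stated.

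FPKM values were used as deposited. Ratios were formed without a pseudocount for entries with a mean of at least 0.1 FPKM, a value of 0 in either library gave no ratio, and 2-fold was the limit for a call. With 1 library per group no test between groups was made. Positions are those of the files, whose starts count from 0 and were raised by 1. Fragments were estimated from the steps between low values, using each gene's longest transcript in GENCODE M21, a calculation added after the data had been seen. Profiles were compared as log2(FPKM + 0.1), centred for each gene over the 4 libraries.

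The 10 members, the 13 other gene lists and the motifs were chosen with earlier results of these data known. The rule for names took in all members, *Stat3*, up to 3 genes of each other list by mean FPKM, and the 5 entries whose profile was nearest to the mean profile of the members. The steps were tested on simulated data. These had a small, even spread and no counting error, so they say nothing about calls on few fragments. Alternatives were pseudocounts of 0.1 and 1, the median of all entries set to 0, upper-quartile scaling, a minimum mean of 1 FPKM or none, limits of 1.5 and 3, and the sum without *Cd68*. Python 3.11.15 was used with numpy 2.4.6, pandas 2.3.3, scipy 1.17.1 and matplotlib 3.10.9. Some genes that the rule for names took in are not reported here. Protein, RT-qPCR and ChIP measurements were not analysed here.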

Additional observations from a re-analysis of the deposited data

Results flagged for a closer look

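The genotype ratio pointed one way at E11 and the other way at E14 for 3 members, each with a single library per group. The E14 genotype ratio, *Stat3* cKO to CTL, was 3.41 times the E11 ratio for *Cx3cr1*, 1.44 times for *C1qa* and 2.11 times for *C1qc*. The difference between the stages was not tested. At E14 the values behind these ratios rested on an estimated 7 to 11 fragments in CTL and 10 to 23 in *Stat3* cKO.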

How the results depend on the processing

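The median stage ratio of the members kept its direction under every alternative run, but its size depended on the pseudocount, since most E14 values lay below 0.4 FPKM. With a pseudocount of 1, members at least 2-fold lower numbered 5 in CTL and 4 in *Stat3* cKO, against 7.90% and 7.34% of all entries, with median log2 ratios of -0.88 and -0.73, and a pseudocount of 0.1 gave a median of -1.96 in *Stat3* cKO. A minimum mean of 1 FPKM left 4 members, of which 4 were lower in each genotype, but as every member was below 1 FPKM in both E14 libraries, that minimum keeps only genes that are high at E11 and says nothing about stability. Without *Cd68* the summed FPKM at E14 was 1.35 in CTL and 1.29 in *Stat3* cKO.

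The single 2-fold calls between genotypes were not stable. At E11 the count of lower members was 0 with either pseudocount, with the minimum of 1 FPKM and at 3-fold, 2 with the median of all entries set to 0 or upper-quartile scaling, against 4.29% and 4.63% of all entries, and 6 at 1.5-fold, where 9.21% of all entries were lower. All ratios formed for members at E11 stayed below 1 in each of these. At E14 the count of lower members was 0 with either pseudocount and at 3-fold, and that of higher members was 1 with upper-quartile scaling, against 6.04% of all entries, and 2 at 1.5-fold, against 11.0%. With upper-quartile scaling 3 members, and with the median of all entries set to 0, 4 members had a ratio below 1 at E14, against 6 as deposited. No paired analysis was possible because the labels give the groups no shared replicates and the results come from no test. The E14 genotype ratios rest on few fragments.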

Other observations

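Among 15900 entries, those whose centred log2 profile over the 4 libraries was nearest to the mean profile of the members were *Crygc*, *C1ra*, *Ms4a7*, *Serpinh1* and *Hpse*, with root mean square differences of 0.0224, 0.0345, 0.0501, 0.0660 and 0.0765. *C1ra* encodes a protease that binds C1q, and was at 0.511 FPKM (CTL) and 0.347 FPKM (*Stat3* cKO) at E11 and at 0.0228 FPKM (CTL) and 0.0289 FPKM (*Stat3* cKO) at E14. *Ms4a7*, a surface gene of macrophages, was at 0.978, 0.639, 0.0967 and 0.118 FPKM. *Serpinh1*, the collagen chaperone of connective tissue cells, had a near profile on this scale at a far higher level, with 554, 395, 102 and 117 FPKM. The lens crystallin gene *Crygc* was at 0.416 and 0.242 FPKM at E11 and listed at 0 in both E14 libraries, and the heparanase gene *Hpse* was at 1.08, 0.633, 0.123 and 0.106 FPKM. Of the members, *Csf1r* was nearest to the mean profile with a difference of 0.173 and *Cd68* farthest with 0.854.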
